A study of Mus musculus with 5 samples.

Results

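CTCF peaks at the ends of long non-coding RNA (lncRNA) genes, away from the ends of protein-coding genes, were described in NIH3T3, a fibroblast line derived from mouse embryos. A peak was counted here when its midpoint lay on chromosomes 1 to 19, within 1 kb of an end of a RefSeq lncRNA gene and not within 1 kb of an end of any protein-coding gene. Of the 22554 peaks on these 19 chromosomes, 883 met this rule, or 3.92% (exact 95% interval 3.67 to 4.18%). Intervals of this kind cover the counting of peaks or genes only. A further 200 peaks lay at a lncRNA end and a protein-coding end at once and were left out, which was 18.5% of the 1083 peaks at lncRNA ends.

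The cells stably carried H2B-mCherry, the rtTA3G transactivator and a doxycycline-inducible gene for the homeobox factor CDX2 under TRE3G. CTCF was immunoprecipitated in 2 libraries given doxycycline for 6 h (the label reads 500 ng/µL, and its unit is uncertain) and in 2 libraries without it, and 1 input library came from cells without doxycycline. The labels do not say whether the line is a clone. The 5 libraries are represented by 1 list of 22756 peak intervals in which the conditions had been merged, with no height, score or sample name. Depth is therefore unknown, no peak is tied to a condition or a replicate, and the effect of CDX2 induction was not tested.

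CTCF is a zinc finger protein that binds a long, directional DNA motif and, together with cohesin, holds the anchors of chromatin loops, whose motifs tend to face each other. Many of its sites lie between genes, and others lie in promoters. lncRNA genes are transcribed and spliced much like protein-coding genes but give no known protein. Some act in the nucleus, some host small RNAs in their introns, and most have no known role.

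The clearest sequence data for these peaks come from the windows that RefSeq start sites allow on GRCm38.p6, the assembly behind mm10. They run from 250 bases before to 50 after a transcript start. The 7 stretches shown here are the bases of a peak that fall inside such a window, 5′ to 3′ on the strand of the lncRNA. Capitals mark each match to the CTCF core, taken as CC, then 3 free bases, AG, 2 free bases and GGC, on either strand. The first 4 hold the core in the direction of transcription of the gene named, and Snhg15 and Hoxd3os1 hold it in the opposite direction. The stretch at Snhg17 is shown because it held no match to this core. It covers 52.6% of the 570 bp peak there, and the whole peak was not searched. Looser forms of the CTCF motif were not searched for. The stretch at Gm41414 is shown because its peak lies at the starts of 2 lncRNA genes, and the same matches run against transcription of the other, Gm52265. They were chosen after their values were seen.
Snhg7, chr2:26640220-26640451, minus strand: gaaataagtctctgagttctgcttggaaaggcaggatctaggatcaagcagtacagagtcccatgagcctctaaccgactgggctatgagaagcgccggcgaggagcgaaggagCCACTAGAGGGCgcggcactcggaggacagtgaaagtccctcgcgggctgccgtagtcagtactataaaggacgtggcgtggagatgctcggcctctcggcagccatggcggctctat
Tbx3os2, chr5:119691169-119691419, minus strand: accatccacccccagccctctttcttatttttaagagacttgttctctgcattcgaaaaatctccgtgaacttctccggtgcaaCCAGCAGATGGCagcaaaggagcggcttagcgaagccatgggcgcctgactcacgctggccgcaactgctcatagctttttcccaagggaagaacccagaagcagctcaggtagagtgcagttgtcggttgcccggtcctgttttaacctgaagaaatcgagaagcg
Chrna1os, chr2:73584635-73584874, plus strand: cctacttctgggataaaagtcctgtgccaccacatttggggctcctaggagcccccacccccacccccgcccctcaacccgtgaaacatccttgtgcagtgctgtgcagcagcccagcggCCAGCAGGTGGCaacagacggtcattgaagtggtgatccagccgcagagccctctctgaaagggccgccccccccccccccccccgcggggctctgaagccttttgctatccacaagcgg
Gm41414, chr16:5306603-5306887, plus strand: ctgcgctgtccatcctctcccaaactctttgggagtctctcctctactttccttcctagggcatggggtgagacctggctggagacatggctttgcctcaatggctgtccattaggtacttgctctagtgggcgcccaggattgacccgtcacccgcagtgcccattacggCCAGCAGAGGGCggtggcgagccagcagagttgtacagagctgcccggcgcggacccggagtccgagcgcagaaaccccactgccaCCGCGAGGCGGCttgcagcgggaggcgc
Snhg15, chr11:6528801-6528987, minus strand: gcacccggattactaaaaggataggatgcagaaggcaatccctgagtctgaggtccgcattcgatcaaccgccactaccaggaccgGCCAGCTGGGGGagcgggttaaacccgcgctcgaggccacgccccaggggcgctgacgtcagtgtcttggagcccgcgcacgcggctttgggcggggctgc
Hoxd3os1, chr2:74716081-74716292, minus strand: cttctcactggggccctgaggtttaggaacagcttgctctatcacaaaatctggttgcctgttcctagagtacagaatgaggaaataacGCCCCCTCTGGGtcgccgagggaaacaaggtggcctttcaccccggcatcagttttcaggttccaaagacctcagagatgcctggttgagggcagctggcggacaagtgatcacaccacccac
Snhg17, chr2:158361460-158361759, minus strand: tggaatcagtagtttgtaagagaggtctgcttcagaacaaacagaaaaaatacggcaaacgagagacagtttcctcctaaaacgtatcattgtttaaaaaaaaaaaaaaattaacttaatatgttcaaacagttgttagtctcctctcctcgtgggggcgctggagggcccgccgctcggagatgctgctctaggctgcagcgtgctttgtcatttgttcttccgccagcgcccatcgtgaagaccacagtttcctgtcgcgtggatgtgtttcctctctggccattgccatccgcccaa

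Where these chosen examples held the core, it lay within 50 bp of the midpoint of the peak, except at Hoxd3os1. The midpoint of the match was 4 bp from that of the peak at Snhg7, 1.5 bp at Snhg15, 6 bp at Chrna1os and 42.5 bp at Tbx3os2. At Hoxd3os1, where the peak was 504 bp wide, it was 157 bp away. At Gm41414 the 2 matches were 46.5 and 39.5 bp away. The peaks at Snhg7, Snhg15 and Chrna1os lay wholly within the window, so their whole sequence is printed.

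Starts of lncRNA genes were more crowded with CTCF peaks than the sequence around them, and finishes were not. Strand was known for 9291 of the 12324 lncRNA genes, from the table of start windows. Among peaks away from protein-coding ends, the 250 bp just upstream of the lncRNA start held 99 peaks, or 10.7 per 1000 genes, and the 250 bp just downstream held 66, or 7.10 per 1000. The mean of these adjoining bins was 2.22 times the mean of the bins 2 to 5 kb away, which ranged from 2.69 to 5.92 per 1000 genes. At the finish the corresponding bins held 40 and 29 peaks, and their mean was 1.04 times that of the bins 2 to 5 kb away. No test was made of these ratios. The bins 2 to 5 kb away stand in for the local density on either side.

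**Figure D1:**
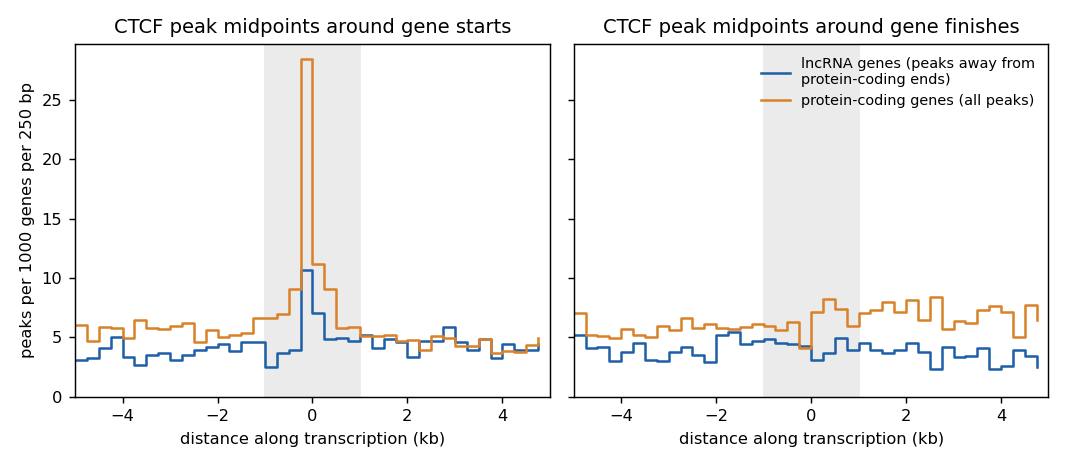
CTCF peak midpoints per 1000 genes in bins of 250 bp, by distance in kb along transcription from gene starts (left) and finishes (right), for lncRNA genes (blue, peaks away from protein-coding ends) and protein-coding genes (orange, all peaks). The shaded band is the 1 kb window of the rule, and lncRNA starts reach 10.7 peaks per 1000 genes just upstream, where protein-coding starts reach 28.4.

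The same shape was seen at protein-coding genes, at a higher level. Over 16457 protein-coding genes with a known strand, the 250 bp upstream of the start held 28.4 peaks per 1000 genes, and the bins around the start averaged 3.94 times those 2 to 5 kb away. At protein-coding finishes that ratio was 0.892. The lncRNA profile leaves out peaks within 1 kb of a protein-coding end, and the protein-coding profile leaves out none, so their levels are not matched.

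By the nearest end, 374 of the 883 peaks lay at a lncRNA start, 298 at a finish and 211 at a gene whose strand was not known. These 211 include all 22 lncRNA-end peaks of chromosome 18, so the counts by start and finish hold none from that chromosome. Starts made up 55.7% of the 672 peaks with a known strand (51.8 to 59.5%). Among the 120 of these within 100 bp of an end, 97 lay at a start, or 80.8% (72.6 to 87.4%), and within 250 bp it was 163 of 232, or 70.3% (63.9 to 76.1%). Peaks at starts lay closer to the end. Their median distance was 336 bp (quartiles 95.5 and 627 bp), against 518 bp (267 and 748 bp) at finishes.

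**Figure D2:**
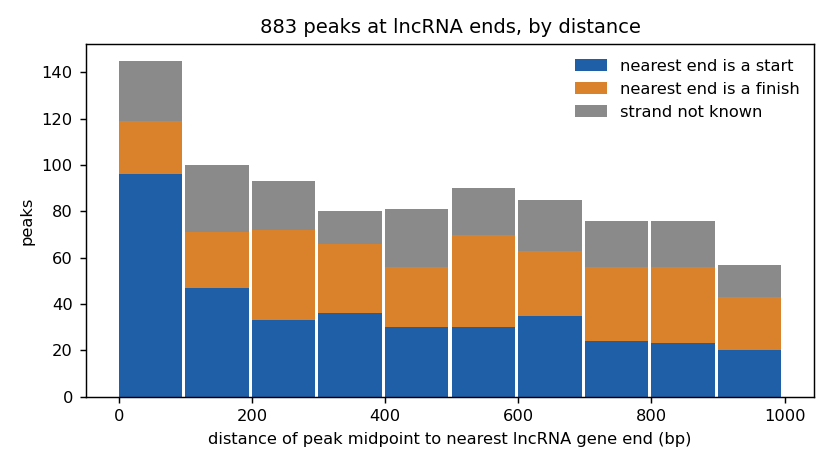
Number of lncRNA-end peaks by distance in bp from the peak midpoint to the nearest lncRNA gene end, in steps of 100 bp, stacked by whether that end is a start (blue), a finish (orange) or of unknown strand (grey). The blue part is tallest in the first step, where 80.8% of the peaks with a known strand lay at a start.

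The peaks were about evenly divided between the inside and the outside of the transcribed region. Of the 883, 454 had their midpoint in the body of the nearest lncRNA gene, or 51.4% (48.1 to 54.8%). At starts this share was 49.5% and at finishes 52.3%. Their midpoints lay at a median of 437 bp from the end (quartiles 162 and 687 bp), and 146 of them lay within 100 bp.

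Of 12324 lncRNA genes, 861 had such a peak, which is 6.99% of all of them. Most had a single one: 818 genes had 1 peak, 42 had 2 and 1 had 3. Peaks were found near each of the gene's ends in 46 genes, and in 24 of these the same peak lay within 1 kb of the start and the finish alike. A peak belonged to 1 lncRNA gene in 861 cases and to 2 genes in 22. In 7 of those 22 the peak lay at the starts of both genes, in 6 at a start and a finish, in 4 at the finishes of both, and in 5 at least 1 strand was not known. The peak at Gm41414 and Gm52265, on chromosome 16, is of the first kind, and the nearest other listed peak was 51.0 kb away.

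By median length, the genes with a peak were shorter than those without. Their median was 6.66 kb (quartiles 3.33 and 15.0 kb) against 8.56 kb (3.79 and 19.3 kb) for lncRNA genes without one. By length, 8.46% of 2010 genes of 1 to 3 kb had a peak and 7.87% of 4513 genes of 3 to 10 kb. The share was 6.49% of 3668 genes of 10 to 30 kb and 4.47% of 1769 longer genes. The 364 genes of up to 1 kb had 5.22% (3.17 to 8.03%), an interval that contains the 6.99% of all lncRNA genes. In those short genes the windows at the start and the finish largely overlap and cover less sequence. Whether this bears on their share was not tested.

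Most of the genes carry provisional names, as lncRNA genes do in general. Gm gene models gave 686 of 9867 (6.95%), LOC gene models 17 of 231 (7.36%), and genes named after RIKEN clones 125 of 1746 (7.16%). Genes named for an overlapping or opposite-strand gene gave 12 of 218 (5.50%), and those with a name of their own 21 of 262 (8.02%, interval 5.03 to 12.0%). Each of these intervals contained the 6.99% of all lncRNA genes. lncRNA genes that overlap a protein-coding gene had a peak in 293 of 4466 cases (6.56%), and those apart from protein-coding genes in 568 of 7858 (7.23%).

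Among the gene lists examined, hosts of small RNAs had the highest share. Of 34 small RNA host genes, 7 had a lncRNA-end peak, or 20.6% (8.70 to 37.9%), against 6.99% of all lncRNA genes. They were Snhg7, Snhg9, Snhg15, Snhg16 and Snhg17, which carry small nucleolar RNAs, Epb41l4aos, another such host, and Mir22hg, the precursor of miR-22. The list holds few genes, and the lists were chosen with earlier results of these data known. Its share is singled out here as the highest and was not tested.

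The peaks at these hosts lay at the start in most cases. At Snhg7 on chromosome 2 (26637176 to 26640244) the peak was 232 bp wide, its midpoint 91.5 bp from the start, just upstream. At Snhg15 on chromosome 11 (6525591 to 6528760) a peak of 187 bp lay 134 bp upstream. At Snhg16, also on chromosome 11, it was 601 bp wide and 323 bp upstream. Snhg17 on chromosome 2 (158353700 to 158361522) had a peak near each end: 1 of 570 bp, 80.5 bp upstream of the start, and 1 of 215 bp inside the gene, 846 bp before the finish. The short Snhg9 gene on chromosome 17 (0.435 kb) had a peak of 638 bp lying 779 bp from its start and inside the body of Rps2, which encodes a small-subunit ribosomal protein. That peak was 1.18 kb from an end of Rps2. The Mir22hg peak (196 bp) lay 203 bp past the finish and 1.13 kb from an end of the neighbour Tlcd2, so it passed the rule narrowly. At Epb41l4aos on chromosome 18 the peak (335 bp) was 77 bp outside the gene, 1.51 kb from Epb41l4a. Strand was not known there.

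Of 28 widely expressed or regulatory lncRNA genes, 2 had a lncRNA-end peak (7.14%, interval 0.877 to 23.5%). Malat1, an abundant nuclear RNA, lies on chromosome 19 (5795690 to 5802672) and had a peak of 255 bp, 617 bp upstream of its start. There were 4 listed peaks in its body or within 10 kb. Its neighbour Neat1, the scaffold of paraspeckles, had 2 such peaks but none at an end, the nearest being 4.88 kb away. Bvht, or Braveheart, known from heart lineage commitment, lies on chromosome 18 and had 2 peaks at the same end, of 467 and 229 bp, whose midpoints were 0.529 kb apart. Both Bvht peaks also lay in the body of the overlapping lncRNA gene Carmn (61645878 to 61665538). Carmn had 5 listed peaks in its body or within 10 kb but none at an end, the nearest being 1.05 kb away. The nearest peak to an end was 1.38 kb away at Miat, 42.6 kb at Tug1 and 62.8 kb at Pvt1.

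Of 32 antisense lncRNA genes of homeobox and other developmental regulators, 2 had a lncRNA-end peak (6.25%, interval 0.766 to 20.8%). Hoxd3os1 on chromosome 2 (74710044 to 74716130) had a peak of 504 bp over its start, 89.5 bp inside the gene. That peak also lay in the annotated body of Hoxd3, a homeobox gene of body-axis patterning, 4.05 kb from its nearest end. Tbx3os2 on chromosome 5 had a peak of 265 bp, 69 bp upstream of its start and 6.56 kb from Tbx3, a T-box factor of limb and mammary development. Foxd2os and Tbx3os1 had an end peak that was left out because a protein-coding end lay within 1 kb, so 4 of the 32 had any end peak (12.5%, interval 3.51 to 29.0%), against 8.47% of all lncRNA genes. Hotair, which lies in the Hoxc cluster, had its nearest peak 18.6 kb away.

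None of 11 imprinted lncRNA genes had a peak at an end, a count that allows a share of up to 28.5%. The nearest listed peak lay 32.6 kb from an end of H19, the maternally expressed RNA beside Igf2, and 43.0 kb from an end of Meg3. It lay 59.1 kb from an end of Kcnq1ot1 and 20.7 kb from Airn, the antisense RNAs of their imprinted domains. In the body or within 10 kb there were 2 peaks for Snhg14 and 1 each for Airn, Peg13, Rian and Nctc1. There were none for H19, Meg3, Kcnq1ot1 and Mirg. A region that is not listed may have lacked reads, which cannot be seen in the list.

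The genes with most peaks were mostly uncharacterised. 4930553P18Rik on chromosome 6 (86004353 to 86009353) was the single gene with 3: peaks of 260 and 299 bp at its start and 1 of 288 bp past its finish. The nearest protein-coding end belonged to Figla, an oocyte transcription factor gene, at 6.32 to 12.8 kb. Of the 42 genes with 2 peaks, 9 are named here, those with most listed peaks in the body or within 10 kb and then by symbol. Gm34974 on chromosome 9 (61860177 to 61898772) had a peak 153.5 bp inside its start and another 245 bp inside its finish, 38.6 kb of gene lying between its ends. 1700017L05Rik, Gm30940, Gm32137, Gm36405 and LOC108169085 likewise had 1 peak by each end. Gm29679, 6530402F18Rik and Bvht had both peaks by the same end.

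Most windows of 1 Mb that held any lncRNA-end peak held only 1. No comparison was made with an even scatter of the peaks. Of these windows, 413 held 1, 127 held 2 and 46 held 3. The fullest was the 1 Mb from 148000001 on chromosome 5, with 6 of 29 listed peaks over 15 lncRNA genes. They belonged to 2210417A02Rik, Gm36405 (2), LOC108169085 (2) and Gm52833, and lay 17.8 to 129 kb from the nearest protein-coding end, that of the katanin-like gene Katnal1. Another 4 windows held 5 each, of which the first 2 in chromosome order are described. The 1 Mb from 61000001 on chromosome 9 held 5 of 13 peaks, at LOC115487176, Gm46116, Gm34974 (2) and Gm35058. The last 3 lay 6.06 to 52.9 kb from the ribosomal protein gene Rplp1. The 1 Mb from 94000001 on chromosome 11 held 5 of 41 peaks, at Gm38951, B230206L02Rik, Gm35338, Gm38956 and Gm51872. Windows with 4 peaks numbered 13.

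Per lncRNA gene, chromosomes 11 and 15 had the highest shares with a peak. On chromosome 11 it was 108 of 739 genes, or 14.6% (12.1 to 17.4%), and on chromosome 15 it was 57 of 534, or 10.7% (8.19 to 13.6%). The lowest shares were on chromosome 13, with 23 of 695 (3.31%, 2.11 to 4.92%), and chromosome 14, with 22 of 599 (3.67%, 2.32 to 5.51%). As a share of all peaks of the chromosome, the lncRNA-end peaks varied less. They ran from 2.98% on chromosome 3 to 5.17% on chromosome 6, and were 4.27% on chromosome 11 and 3.45% on chromosome 13.

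**Figure D3:**
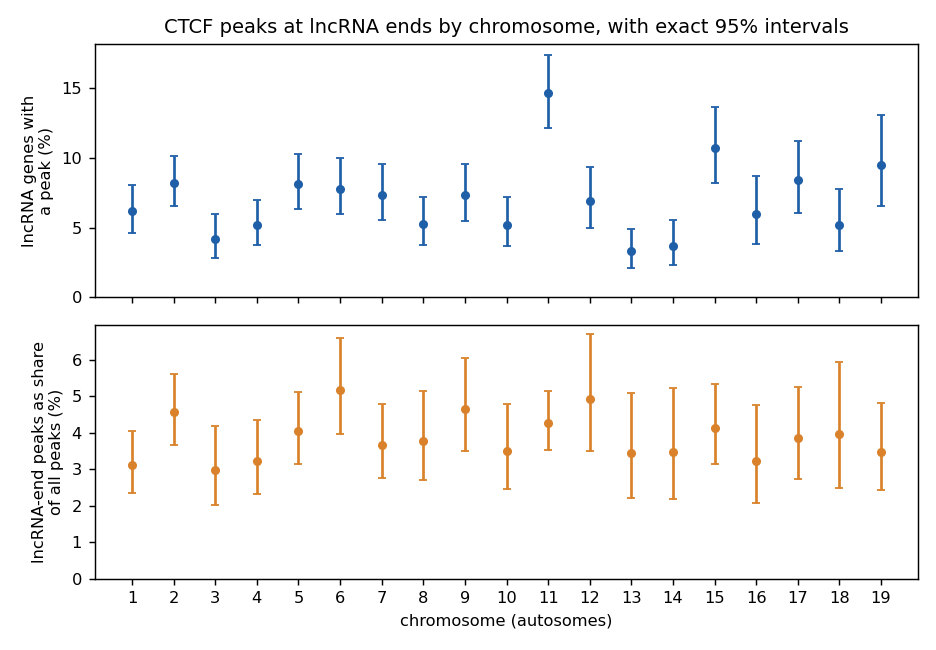
Percent of lncRNA genes with a lncRNA-end peak (top, blue) and lncRNA-end peaks as percent of all listed peaks (bottom, orange) on each autosome, with exact 95% intervals as bars. Chromosome 11 stands at 14.6% in the top panel, while its share in the bottom panel, 4.27%, lies among those of the other chromosomes.

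In width the lncRNA-end peaks lay between those at protein-coding ends and the rest. Their median was 268 bp (quartiles 222 and 322 bp, range 170 to 1825 bp). It was 283 bp (232 and 345 bp) for the 2472 peaks at protein-coding ends and 259 bp (216 and 313 bp) for the 19199 at neither kind of end. At lncRNA starts the median was 274 bp and at finishes 264 bp. The quartiles of all these groups overlap widely and the differences were not tested. Of the 883, 44 were at least 500 bp wide, or 4.98% (3.64 to 6.63%), against 5.99% at protein-coding ends and 3.76% at neither.

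**Figure D4:**
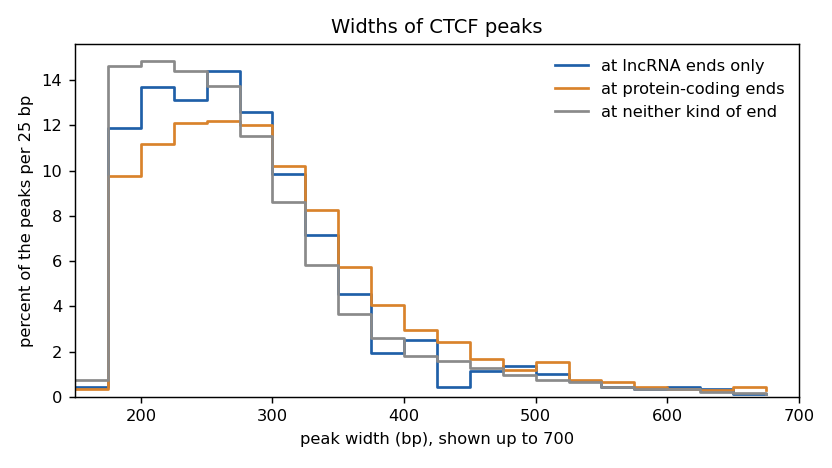
Distribution of peak widths in bp, as percent of peaks per 25 bp up to 700 bp, for peaks at lncRNA ends only (blue, median 268 bp), at protein-coding ends (orange, 283 bp) and at neither kind of end (grey, 259 bp). The curves overlap over most of their range, and the blue curve runs between the others around 325 bp.

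The widest peak, of 1825 bp, lay at the start of Gm51701 on chromosome 9 (123924540 to 123926364), 36.7 kb from the chemokine receptor gene Ccr1. The next were 1317 bp at Gm40320 on chromosome 5, by the zinc finger gene Zfp664 at 10.9 kb, 1189 bp at the start of Gm40371 and 1150 bp at the start of LOC115490388, both on chromosome 6. Gm5922 on chromosome 9 had a peak of 1076 bp that lay inside Rpsa, a ribosomal protein gene, 1.50 kb from its end. B230206L02Rik, Gm33940 and Gm30745 followed with 926, 901 and 817 bp, each at a start. Gm51701, Gm40371, LOC115490388 and Gm30745 had another listed peak within 0.872 to 1.66 kb.

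A smaller share of lncRNA-end peaks than of other peaks lay inside protein-coding genes. It was 228 of 883, or 25.8% (23.0 to 28.8%), against 9720 of 19199, or 50.6% (49.9 to 51.3%), of the peaks at neither kind of end. lncRNA ends themselves lie outside protein-coding bodies for the most part. Of 22466 lncRNA ends away from protein-coding ends, 27.8% lay in a protein-coding body, close to the share of the peaks. Members had their nearest protein-coding end 1 to 5 kb away in 194 cases (22.0%), 5 to 20 kb in 300 (34.0%), 20 to 100 kb in 299 (33.9%) and over 100 kb in 90 (10.2%). The median was 15.7 kb (5.87 and 41.1 kb), against 14.2 kb for peaks at neither kind of end.

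Another listed peak lay within 10 kb of 395 of the 883 peaks, or 44.7% (41.4 to 48.1%). For peaks at protein-coding ends it was 46.1% and for those at neither kind of end 41.0% (40.3 to 41.7%). The median distance to the next peak was 12.1 kb (4.20 and 34.8 kb), against 11.8 and 14.7 kb. Among the 883, 21 (2.38%, interval 1.48 to 3.61%) also lay within 1 kb of an end of a gene of another type, such as a pseudogene or a small RNA gene. The share was close to the 2.02% of peaks at protein-coding ends and the 1.92% of those at neither kind of end.

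The rule's limits cut through a continuous range. Just inside the 1 kb limit to a lncRNA end lay peaks at Gm36797 (999.5 bp), Gm14207 (998 bp) and Gm30699 (997 bp), and just outside it lay peaks at Gm15478 (1001 bp), Gm14246 and Gm35908 (1001.5 bp each). On the protein-coding side, members at D830025C05Rik, 0610040F04Rik and Gm16001 were 1019, 1025.5 and 1040 bp from ends of Letm2, Bhlhe40 and Ogfod2. Peaks at Gm27042, Gm28043 and 1700034H15Rik were left out at 985, 981 and 978 bp from Aldh18a1, Cmtr1 and Slc30a1.

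The CTCF core was found far more often in start windows under these peaks than in other lncRNA start windows. RefSeq start windows matched 9291 lncRNA genes with 11311 windows, of which 199, from 186 genes, overlapped 184 of the 883 peaks. Windows that share a match or a peak were each counted, so the intervals of window shares treat them as independent. The core was present in 73 of the 199, or 36.7% (29.98 to 43.8%), against 619 of 11031 lncRNA windows under no listed peak, or 5.61% (5.19 to 6.06%). In all 31396 start windows, protein-coding ones included, it was 8.73%. Under listed peaks, protein-coding windows held it in 365 of 889 cases, or 41.1% (37.8 to 44.4%). A window may overlap only the edge of a peak, and 19 peaks lay wholly inside a window. Of these 12 held the core, or 63.2% (38.4 to 83.7%).

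A stricter form of the core, with A as the third letter, was in 49 of the 199 windows, or 24.6% (18.8 to 31.2%). It was in 138 of 889 protein-coding windows under a peak, or 15.5% (13.2 to 18.1%), and in 2.11% of lncRNA windows under no peak. With the looser core the protein-coding share was the higher one, though with overlapping intervals. Of the 75 matches in windows under lncRNA-end peaks, 7 read CCACCAGGGGGC, the commonest word. That was 35.2 per 1000 windows, against 0.0907 per 1000 lncRNA windows under no peak. Another 5 read CCAGCAGAGGGC, or 25.1 against 0.0907 per 1000 windows. The word CCAGAAGAGGGC made up 4 of the 75 matches under these peaks and 59 of the 610 in windows under no peak, or 20.1 against 5.35 per 1000 windows.

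The core ran in the direction of the lncRNA in most cases. Of the 75 matches in windows under lncRNA-end peaks, 2 lay in the windows of Gm41414 and Gm52265, which point in opposite directions, and have no single direction. Of the other 73, 50 ran with transcription and 23 against it, or 68.5% forward (56.6 to 78.9%). In protein-coding windows under a peak it was 242 of 380, or 63.7% (58.6 to 68.5%), and in lncRNA windows under no peak 297 of 607, or 48.9% (44.9 to 53.0%). A match that is shared by overlapping windows was counted 1 time. No test was made of these shares.

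Most matches under lncRNA-end peaks lay close to the midpoint of the peak. Of the 75, 70 lay inside the peak, at a median of 21.3 bp from its midpoint (quartiles 7 and 59.3 bp), and 52 of the 70 were within 50 bp of it. Relative to the start, the median position of all 75 was -72.5 bp (quartiles -113 and -34 bp). The median was -89.5 bp (-170 and -35.8 bp) in lncRNA windows under no peak and -74 bp in protein-coding windows under no peak. The median alone hardly set the windows under a peak apart. By their quartiles, the matches under lncRNA-end peaks were less spread out than those in lncRNA windows under no peak. The window covers 250 bases before the start and 50 after, which bounds these values. The densest 25 bp lay from 75 to 50 bp before the start in lncRNA windows with and without a peak, with 80.4 and 6.26 matches per 1000 windows. Without a peak this bin barely stood out, with 5.80 and 5.89 per 1000 in the bins beside it. Under a peak those bins held 65.3 and 45.2 per 1000.

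**Figure D5:**
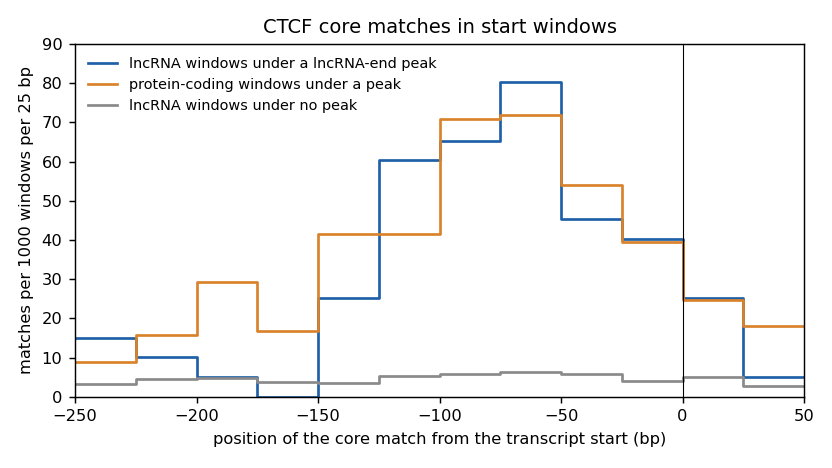
CTCF core matches per 1000 start windows in bins of 25 bp, by position in bp from the transcript start (vertical line), for lncRNA windows under a lncRNA-end peak (blue), protein-coding windows under a peak (orange) and lncRNA windows under no listed peak (grey). The blue curve reaches 80.4 between 75 and 50 bp before the start, where the grey curve is at 6.26.

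The windows under lncRNA-end peaks were also somewhat richer in G and C. Their median GC content was 51.0% (quartiles 46.7 and 56.8%), against 48.3% (43.3 and 53.7%) in lncRNA windows under no peak and 62.0% (56.3 and 67.3%) in protein-coding windows under a peak. The ratio of observed to expected CpG, which is high in CpG islands and low elsewhere, was 0.339 (0.222 and 0.583), against 0.243 and 0.758. In both measures the lncRNA windows under a peak resembled other lncRNA windows more than protein-coding windows under a peak. The core itself is rich in G and C, and its part in the GC content was not tested.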

How the data were processed

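Per the submitters' processing notes, STAR, Picard and MACS2 were used, with the builds mm10 and dm6. Versions, roles, peak threshold, the way peaks were merged and any use of the Drosophila spike-in were not stated in labels or file. The authors deposited 1 peak list of 3 columns (chromosome, start, end) with no score or other measured value, so depth per sample is unknown. Positions are printed counted from 1. Peaks off chromosomes 1 to 19 were left out.

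Genes came from RefSeq for GRCm38.p6, by biotype. The 328 genes on these chromosomes positioned below 3 Mb were left out, which left 12324 lncRNA and 20560 protein-coding genes. Strand and sequence came from RefSeq start windows of the same assembly, of which 79.6% of those for lncRNA genes begin at the outer end of the gene. Genes outside that table have no strand here.

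Shares carry exact Clopper-Pearson intervals at 95%. No test was made, since the list holds no replicates. The members and gene lists were chosen with earlier results of these data known. Of the symbols written in the lists, 34 of 40 small RNA hosts, 32 of 50 developmental, 28 of 39 widely expressed and 11 of 17 imprinted ones matched a lncRNA gene. Named genes were the listed genes with a member peak, the 10 genes with most member peaks (ties by peaks in the body or within 10 kb, then by symbol), the 8 widest members, members and other peaks at the limits, the 3 fullest windows of 1 Mb (ties in chromosome order), and their nearest protein-coding neighbours. Other genes are named as examples and were chosen after their values were seen. Python 3.11.15, pandas 2.3.3, numpy 2.4.6, scipy 1.17.1 and matplotlib 3.10.9 were used, and the classes and motif search were tested on simulated data.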

Additional observations from a re-analysis of the deposited data

How the results depend on the processing

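The number of peaks depends on the distance that counts as an end. Within 500 bp there were 531 peaks at 526 lncRNA genes, and within 2.5 kb there were 1625 at 1499. Keeping only the wider peaks, from the median width up, there were 482 at 479 genes, and without Gm and LOC gene models 165 at 158. These sets are smaller or larger by construction. The share with another listed peak within 10 kb was 36.7% among the wide peaks, where fewer peaks can be neighbours, and 51.5% without Gm and LOC models, for which the cause was not tested. The core share of 36.7% of windows became 24.6% with the third letter fixed and 28.1% when the match had to lie within 50 bp of the peak midpoint, both narrower searches by construction. Placing peaks by any overlap (993 peaks), merging of peaks under 500 bp apart (867), genes below 3 Mb kept (883) and, added after seeing the data, removal of peaks at ends of other gene types (862) stayed within 1.5 times the main count. The median width ran from 264 to 315.5 bp and the share inside protein-coding genes from 23.4 to 27.3% over all alternatives. No paired analysis was possible because no peak is tied to a replicate or a condition, and no replicate could be left out for the same reason. Depth is unknown, so an end without a peak cannot be told from an end with too few reads.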
